A study of Mus musculus with 16 samples.

Results

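Late loss of Arid1a in mouse liver was read from 4 of the 16 sequenced libraries of the study. The comparison sets Arid1a KO livers against WT livers, both taken 30 days after tamoxifen from mice given the vehicle DMSO, with 2 livers of each genotype described as biological replicates. Tamoxifen switches on an inducible Cre recombinase, and the labels name neither its promoter nor the exons it removes. WT libraries carry the prefix ALB, which the labels do not explain. The RNA came from whole liver by the study's design text, although the labels name hepatocytes as the cell type. Of the 55291 genes in the count table, 17831 passed a low-count filter and were tested. Of the 37460 that did not, 27837 had no count in any of these 4 livers. Only for comparison, Arid1a KO and WT livers of 9 days with vehicle, and of 30 days with an agonist whose receptor the labels spell NR1L3, are used as well.

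ARID1A is a large DNA-binding subunit of the BAF (SWI/SNF) chromatin remodelling complex, which slides or evicts nucleosomes at enhancers and promoters. ARID1B is its paralog and occupies the same place in other copies of the complex. In liver the complex works beside the hepatocyte transcription factors, and ARID1A is among the chromatin genes often mutated in liver cancer.

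Total counts were 10.3 M and 28.2 M in Arid1a KO replicates 1 and 2, against 11.4 M and 24.3 M in WT replicates 1 and 2. Levels are library-scaled counts (CPM, by the trimmed mean of M values), and 3 counts stand for 0.339 and 0.108 CPM in the KO livers, against 0.284 and 0.135 CPM in the WT livers. The KO livers were less alike than any other replicate pair among the 7 liver groups. Their log CPM correlated at 0.954, against 0.974 for the WT livers and 0.970 to 0.977 for the other groups. On the first principal component of the 14 livers, KO replicate 1 lay at 49.9 and KO replicate 2 at -2.04, against 61.5 and 68.3 for the WT livers. Among 12085 genes with a mean of at least 2 CPM, the KO livers differed from each other by more than 4-fold at 286, and the WT livers at 123. No batch is named in the labels.

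Arid1a itself stood at 94.2 and 75.7 CPM in KO livers, against 104 and 85.5 CPM in WT livers, and its groups overlapped. Its log2 fold change, KO over WT, was -0.15 (SE 0.18, edgeR adjusted p = 0.940). A count over the whole gene (chromosome 4, 133679008 to 133756769, GRCm38) also takes in exons outside a deleted part, so it checks no genotype label. Arid1b stood at 67.3 and 37.3 CPM in KO livers, against 59.7 and 42.7 CPM in WT livers, with a log2 fold change of 0.03 (SE 0.28, edgeR adjusted p = 0.997). Of 27 measured BAF and PBAF subunits 0 were called, and their median log2 fold change was -0.04. In edgeR 0 of them had an unadjusted p under 0.05, against 1681 of all 17831 genes tested.

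The KO livers had 51 genes higher and 41 lower than the WT livers. The threshold for a call was an edgeR adjusted p of 0.05 in a quasi-likelihood fit of all 14 livers, which 92 of 17831 genes (0.516%) met. The called higher genes were 0.286% and the called lower genes 0.23% of those tested. In edgeR 1681 of the 17831 genes had an unadjusted p under 0.05. Genes called higher had a median log2 fold change of 2.699 and 35 of 51 were more than 4-fold higher. Genes called lower had a median of -2.82 and 36 of 41 were more than 4-fold lower. In all 92 the KO and WT livers did not overlap. Both KO livers lay above both WT livers at 17.8% of all genes tested and below them at 15.2%. Predicted genes and pseudogenes made up 10 of the 51 and 3 of the 41.

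The count of calls depended on single livers. It was 1 without WT replicate 2, 32 without WT replicate 1, 27 without KO replicate 2 and 177 without KO replicate 1. With only the 4 libraries compared in the fit, edgeR called 0 of 14775 genes, where 1048 had an unadjusted p under 0.05 and the smallest adjusted p was 0.0970. DESeq2 called 421 genes, limma-trend 125, and all 92 genes were among the calls of each. KO replicate 2 lay farther from the WT mean than KO replicate 1 at 34 of the 51 higher genes, and at 10 of the 41 lower genes.

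**Figure D1:**
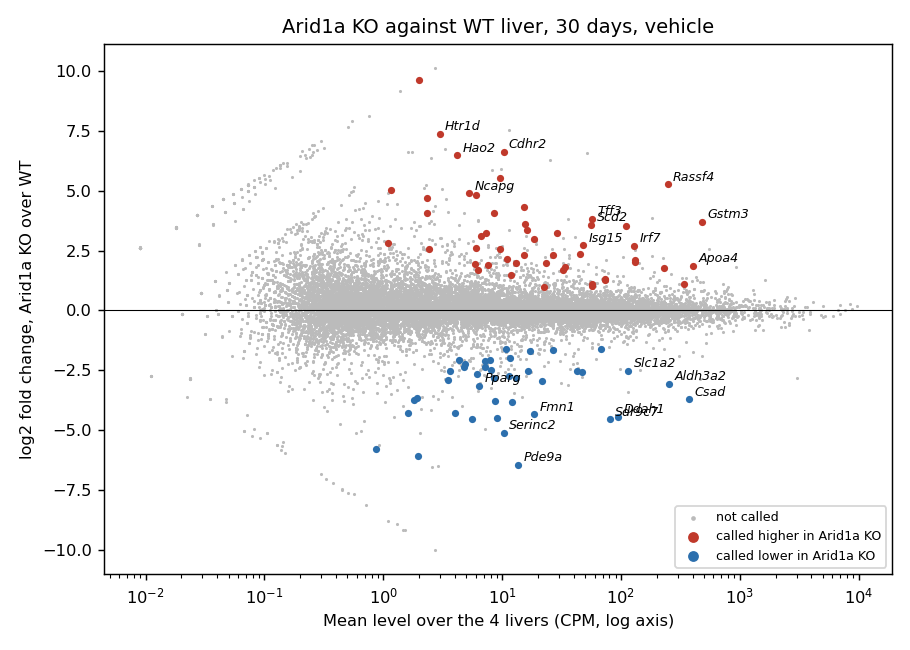
Each point is 1 of the 17831 tested genes, placed by its mean level over the 4 livers (CPM, log axis) and its log2 fold change, Arid1a KO over WT. The 51 genes called higher are red and the 41 called lower are blue, among uncalled genes in grey whose fold changes spread widely below 1 CPM.

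Interferon-stimulated genes held several of the calls. Cells answer type I interferon through a receptor whose kinases activate a transcription factor complex that holds IRF9. This complex binds the interferon-stimulated response element, a repeat of GAAA with a gap of any 2 bases, in front of antiviral genes. Of the 51 genes called higher, 28 matched a promoter in RefSeq (GRCm38.p6, 250 bases before to 50 after the start). This repeat, or TTTC repeated with the same gap for the other strand, was found in 7 of these 28 promoters (25.0%). It was found in 0 of the 35 matched promoters of genes called lower, in 3.88% of the 12242 promoters of tested genes and in 3.99% of all 27025 promoters. The 7 genes were Bst2, Gbp3, Grm8, Isg15, Oas1a, Oas1g and Shisa5.

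The stretches that carry it are shown for the 5 called members of the interferon and antigen presentation lists that hold the motif. Each is the 150 bases before the start of the gene, on the gene's strand, with the motif or its overlapping copies in capitals. They lie at chr4:156200819-156200968 (minus strand), chr5:120907526-120907675 (minus), chr5:120887614-120887763 (minus), chr3:142559894-142560043 (plus) and chr8:71537473-71537622 (minus) of GRCm38.p6.
Isg15: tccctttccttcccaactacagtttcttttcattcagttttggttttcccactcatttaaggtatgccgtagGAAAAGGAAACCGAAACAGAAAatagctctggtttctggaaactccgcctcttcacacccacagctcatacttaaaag
Oas1a: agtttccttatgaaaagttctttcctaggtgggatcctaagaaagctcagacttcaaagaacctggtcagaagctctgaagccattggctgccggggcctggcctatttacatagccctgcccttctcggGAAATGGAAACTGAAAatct
Oas1g: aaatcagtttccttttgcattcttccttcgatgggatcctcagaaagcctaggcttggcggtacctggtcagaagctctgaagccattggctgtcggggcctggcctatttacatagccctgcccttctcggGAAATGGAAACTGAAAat
Gbp3: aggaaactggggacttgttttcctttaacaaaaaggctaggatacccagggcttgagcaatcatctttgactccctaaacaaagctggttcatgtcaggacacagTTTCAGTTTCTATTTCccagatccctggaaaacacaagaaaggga
Bst2: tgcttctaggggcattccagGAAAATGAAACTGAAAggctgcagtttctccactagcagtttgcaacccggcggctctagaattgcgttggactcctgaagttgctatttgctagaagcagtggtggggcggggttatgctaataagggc
Isg15 holds 3 overlapping copies beginning 78 bases before the start, and Gbp3 holds 2 on the opposite strand. Oas1a and Oas1g are neighbouring copies within a gene family, and 120 of 148 bases (81.1%) were identical when the stretches were aligned on the motif without gaps. Irf7, Oasl1, Tap1 and H2-Q6, also called higher, had no such letters in the window.

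Of 25 measured members of the list of interferon and nucleic acid sensor genes 0 were called. Their median log2 fold change was 0.54, against 0.03 over all genes tested. The listed interferon genes Ifnb1, Ifna4, Ifnl2, Ifnl3 and Ifng were not tested. Ifna4, Ifnl2 and Ifnl3 had no count in any of the 4 livers. The median was 0.91 without WT replicate 1 and 0.34 without WT replicate 2. Both KO livers lay above both WT livers at 16 of the 25 (64.0%), against 17.8% of all genes tested. Ifih1, the sensor MDA5, stood at 104 and 127 CPM in KO livers, against 72.0 and 58.2 CPM in WT livers, a log2 fold change of 0.83 (SE 0.26, edgeR adjusted p = 0.261). Ddx58, which encodes RIG-I, stood at 99.1 and 91.4 CPM in KO livers, against 51.6 and 44.5 CPM in WT livers (log2 0.99, SE 0.26, edgeR adjusted p = 0.168). Neither gene's groups overlapped, and neither difference passed the test.

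Among signalling genes Irf7 and Usp18 were called higher. Irf7, the transcription factor that amplifies interferon production, stood at 179 and 270 CPM in KO livers, against 37.7 and 31.5 CPM in WT livers. Usp18, the protease that removes ISG15 and dampens the receptor, stood at 60.7 and 89.7 CPM in KO livers, against 16.7 and 13.1 CPM in WT livers. Irf7 and Usp18 were higher in both KO livers, and the groups overlapped at neither. The log2 fold change was 2.699 for Irf7 (SE 0.31, edgeR adjusted p = 0.00543) and 2.34 for Usp18 (SE 0.36, edgeR adjusted p = 0.0196). Values of the receptor-bound kinases overlapped between the groups for Jak1, at 175 and 192 CPM in KO livers, against 194 and 185 CPM in WT livers. Irf2, a repressor of interferon-responsive promoters, stood at 51.6 and 55.7 CPM in KO livers, against 68.9 and 91.2 CPM in WT livers, and did not pass (log2 -0.58, edgeR adjusted p = 0.345). The list of 17 genes had 3 called higher (17.6%), against 0.286% of all genes tested, and 0 called lower. Its median log2 fold change was 0.10.

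Effector genes, which block viral RNA or mark proteins, had 7 of 57 members (12.3%) called higher, against 0.286% of all genes tested, and 0 called lower. Their median log2 fold change was 1.47, and both KO livers lay above both WT livers at 43 of 57 (75.4%), against 17.8% of all genes tested. Isg15, a ubiquitin-like modifier, stood at 81.8 and 83.8 CPM in KO livers, against 13.4 and 11.98 CPM in WT livers. Oas1a, a synthetase of the oligoadenylate signal that activates RNase L, stood at 26.4 and 32.9 CPM in KO livers, against 2.94 and 2.83 CPM in WT livers. The replicates of each genotype lay close together at these genes, and the groups were far apart. The log2 fold change of Isg15 was 2.71 (SE 0.30, adjusted p = 0.00543 in edgeR) and that of Oas1a 3.37 (SE 0.46, adjusted p = 0.0117 in edgeR).

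The other called effectors were Oas1g, Oasl1, Ifi27l2a, Rtp4 and Bst2. Oas1g stood at 11.98 and 20.2 CPM in KO livers, against 1.71 and 0.449 CPM in WT livers (log2 4.05). Oasl1 stood at 45.5 and 58.8 CPM in KO livers, against 7.59 and 3.68 CPM in WT livers (log2 3.25). Ifi27l2a stood at 14.01 and 22.05 CPM in KO livers, against 4.74 and 3.59 CPM in WT livers (log2 2.14). Bst2, a membrane protein that tethers budding virus, had the smallest of these changes, with a log2 fold change of 1.12. Oas1a and Oas1g are close copies, so the counting may have split their reads, and their separate values are uncertain. Among members that did not pass, Ifit1, an inhibitor of viral mRNA translation, stood at 63.2 and 58.7 CPM in KO livers, against 16.3 and 8.35 CPM in WT livers. Ifi44l had no count in KO replicate 1 or in either WT liver and stood at 5.52 CPM in KO replicate 2, and the list's median is the same with it set to its bound of 3 counts.

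Of 16 guanylate-binding and immunity-related GTPases, which attack the vacuoles of intracellular pathogens, 1 was called higher (6.25%), against 0.286% of all genes tested. Gbp3 stood at 44.2 and 45.3 CPM in KO livers, against 11.7 and 6.82 CPM in WT livers (log2 2.29, SE 0.30, edgeR adjusted p = 0.00975). The list had a median log2 fold change of 1.10, which was 1.68 without WT replicate 1. Both KO livers lay above both WT livers at 11 members (68.8%), against 17.8% of all genes tested. Antigen presentation genes had 2 of 27 (7.41%) called higher, against 0.286% of all genes tested. Tap1, a subunit of the peptide transporter for class I molecules, stood at 80.8 and 127 CPM in KO livers, against 42.6 and 41.9 CPM in WT livers (log2 1.30, edgeR adjusted p = 0.0422). H2-Q6, a class I gene among near-identical neighbours whose reads may be split, had a log2 fold change of 1.26 (edgeR adjusted p = 0.0470). Tap1 overlaps Psmb9 in the annotation, and the strand setting of the counting is not given in the sources used here, so reads of the pair cannot be told apart. Chemokine genes had 0 of 22 called and a median log2 fold change of 0.86, which was 0.30 without KO replicate 2. Their members with the smallest p included Cxcl10, a T cell attractant induced by interferon, at 11.98 and 14.3 CPM in KO livers, against 2.85 and 2.74 CPM in WT livers (log2 2.24, SE 0.69, edgeR adjusted p = 0.255).

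Across the interferon and antigen presentation lists 13 of 117 tested genes were called higher, against 0.286% of all genes tested. Without WT replicate 2 edgeR called 0 of these 13, without KO replicate 2 it called 3 (Gbp3, Irf7 and Isg15), without WT replicate 1 it called 4, and without KO replicate 1 it called 10. The median of the effector list was 1.12, 1.08, 1.65 and 1.38 in the same order of omissions. Markers of monocyte-derived macrophages, dendritic cells and Kupffer cells had median log2 fold changes of 1.36, 1.30 and 0.64, with 0 calls, and their levels are given with the cell type lists. Lymphocyte markers summed to 8.93 and 16.2 CPM in KO livers, against 17.5 and 11.99 CPM in WT livers, and the part of these cells in the interferon genes was not tested.

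Beyond the interferon genes, Rassf4 and Cdhr2 were among the largest rises. Rassf4, a Ras association domain protein (chromosome 6, 116633008 to 116673952), stood at 674 and 287 CPM in KO livers, against 13.4 and 11.7 CPM in WT livers. Cdhr2, a protocadherin that links the tips of microvilli (chromosome 13, 54701461 to 54736662), stood at 11.2 and 29.6 CPM in KO livers, against 0 and 0.314 CPM in WT livers. Both genes were high in both KO livers without overlap. For Rassf4 the log2 fold change was 5.26 (SE 0.45, adjusted p = 0.00331 in edgeR), and for Cdhr2 it was 6.62 (SE 0.79, adjusted p = 0.00664 in edgeR). Rassf4 overlaps Depp1 and Mir7043 in the annotation. Both genes kept their calls in 3 of the 4 fits that leave out a liver and lost them without WT replicate 2. Cdhr2 was the only call among 19 brush border and microvillus genes (5.26%), against 0.286% of all genes tested called higher. The median log2 fold change of this list was -0.03.

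Htr1d, a serotonin receptor gene, had 165 counts in the KO livers and 1 in the WT livers. The ratio of its levels was 148 (95% counting interval 26.2 to 5885). Hao2, a peroxisomal hydroxyacid oxidase, had 397 counts in the KO livers and 3 in the WT livers, a ratio of 119 (95% counting interval 40.4 to 578). These intervals cover counting error only. Hao2 stood at 3.16 and 13.3 CPM in the KO livers, and Htr1d at 8.70 and 3.18 CPM, so the higher KO liver was not the same for the pair. Htr1d was called with an edgeR adjusted p = 0.0357 and Hao2 with an edgeR adjusted p = 0.0187.

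Tff3, one of the trefoil peptides released with mucus, stood at 69.7 and 145 CPM in KO livers, against 10.2 and 5.25 CPM in WT livers (log2 3.82, SE 0.53, edgeR adjusted p = 0.0131). Scd2, a fatty acid desaturase expressed in fetal liver, stood at 63.6 and 144 CPM in KO livers, against 9.67 and 7.81 CPM in WT livers (log2 3.58, SE 0.39, edgeR adjusted p = 0.00543). Ncapg, a condensin subunit of mitotic chromosomes, stood at 8.36 and 11.9 CPM in KO livers, against 0.664 and 0.135 CPM in WT livers (log2 4.89, SE 0.78, edgeR adjusted p = 0.0235). KO replicate 2 was the higher KO liver at all 3 genes. Clic5, a chloride intracellular channel protein found in microvilli, stood at 16.7 and 41.1 CPM in KO livers, against 1.52 and 3.14 CPM in WT livers (log2 3.59). Tcf24, a basic helix-loop-helix factor, stood at 35.3 and 23.1 CPM in KO livers, against 0.190 and 2.42 CPM in WT livers (log2 4.31). Cyp2d12, a cytochrome P450, stood at 10.6 and 13.2 CPM in KO livers, against 1.99 and 0.898 CPM in WT livers (log2 3.10). Of the 15 largest rises, 0 kept a call without WT replicate 2, 3 without KO replicate 2, 4 without WT replicate 1 and 14 without KO replicate 1. Ncapg overlaps Lcorl in the annotation.

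**Figure D2:**
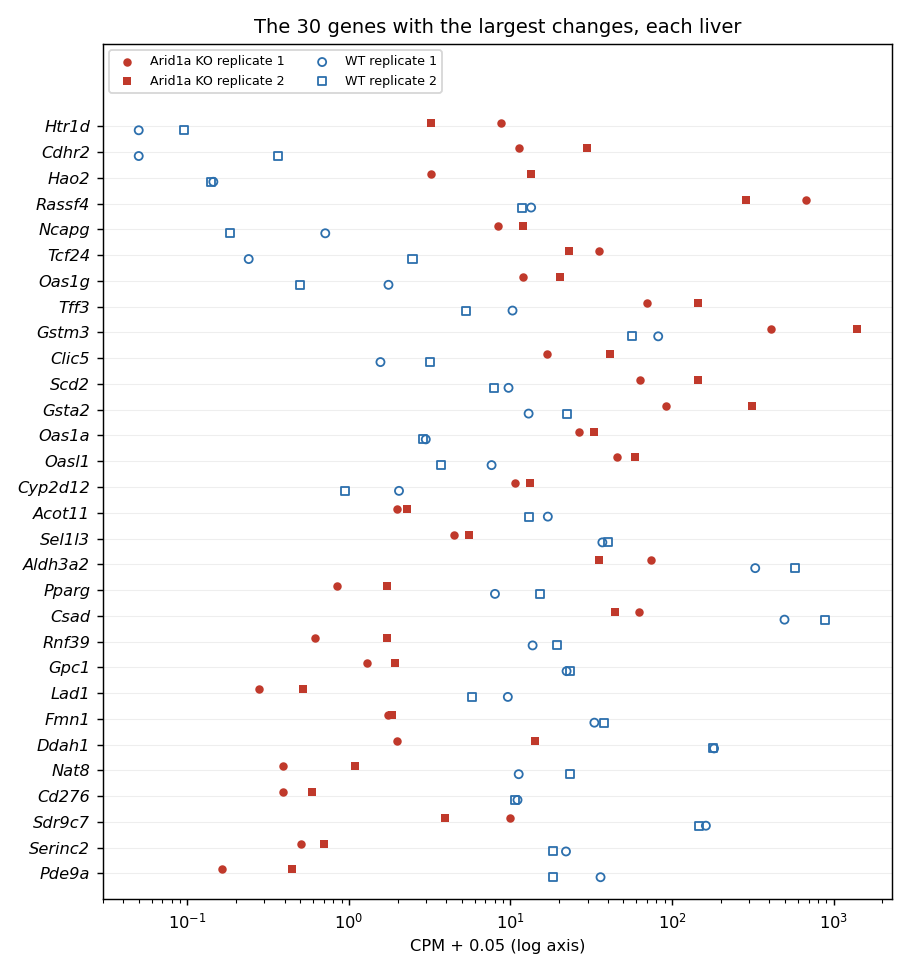
The 15 largest rises and the 15 largest falls among called genes with at least 2 CPM on average, with the level of each liver (CPM plus 0.05, log axis). Filled red symbols are Arid1a KO livers, open blue symbols WT livers, circles replicate 1 and squares replicate 2, and at each gene the 2 genotypes do not overlap.

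The largest falls reached values near the detection limit. Pde9a, a phosphodiesterase that degrades cyclic GMP (chromosome 17, 31386210 to 31476310), stood at 0.113 and 0.397 CPM in KO livers, against 36.0 and 18.2 CPM in WT livers. Its log2 fold change was -6.43 (SE 0.63, adjusted p = 0.00543 in edgeR). Pde9a was the only call among 23 phosphodiesterases (4.35%), against 0.23% of all genes tested called lower. Serinc2, a membrane protein of the serine incorporator family, stood at 0.452 and 0.649 CPM in KO livers, against 22.002 and 18.2 CPM in WT livers (log2 -5.10, SE 0.56, edgeR adjusted p = 0.00543). Cd276, an immune checkpoint ligand of the B7 family, stood at 0.339 and 0.541 CPM in KO livers, against 11.001 and 10.6 CPM in WT livers (log2 -4.51, SE 0.50, edgeR adjusted p = 0.00543). Both were low in both KO livers, with WT livers close to each other.

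Several enzymes fell as well. Ddah1, which hydrolyses asymmetric dimethylarginine, stood at 1.92 and 14.04 CPM in KO livers, against 182 and 180 CPM in WT livers (log2 -4.42, SE 0.71, edgeR adjusted p = 0.0254). Sdr9c7, a short-chain dehydrogenase, stood at 9.94 and 3.90 CPM in KO livers, against 162 and 146 CPM in WT livers (log2 -4.53, SE 0.60, edgeR adjusted p = 0.00975). Csad, the decarboxylase of taurine synthesis, stood at 62.4 and 44.2 CPM in KO livers, against 496 and 884 CPM in WT livers (log2 -3.70, SE 0.47, edgeR adjusted p = 0.00894). At Ddah1 KO replicate 2 stood higher than replicate 1, and both KO livers lay below both WT livers at all 3 genes. Aldh3a2, the fatty aldehyde dehydrogenase, stood at 74.5 and 35.1 CPM in KO livers, against 327 and 574 CPM in WT livers (log2 -3.05, SE 0.37, edgeR adjusted p = 0.00727). Nat8, an acetyltransferase of mercapturate formation with near-identical relatives in the genome, stood at 0.339 and 1.05 CPM in KO livers, against 11.2 and 23.4 CPM in WT livers (log2 -4.47). Acot11, an acyl-CoA thioesterase, stood at 1.92 and 2.24 CPM in KO livers, against 17.0 and 12.9 CPM in WT livers (log2 -2.82).

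Fmn1, an actin-nucleating formin, stood at 1.69 and 1.80 CPM in KO livers, against 33.0 and 37.9 CPM in WT livers (log2 -4.33, SE 0.51, edgeR adjusted p = 0.00643). Gpc1, a heparan sulfate proteoglycan, stood at 1.24 and 1.88 CPM in KO livers, against 22.2 and 23.3 CPM in WT livers (log2 -3.81, SE 0.43, edgeR adjusted p = 0.00543). Lad1, a filament-associated protein of epithelia, stood at 0.226 and 0.469 CPM in KO livers, against 9.58 and 5.70 CPM in WT livers (log2 -4.28). The list of 36 cell adhesion and cytoskeleton genes had these calls at Fmn1 and Lad1 (5.56%), against 0.23% of all genes tested called lower. It had 0 called higher and a median log2 fold change of 0.12. E-cadherin, Cdh1, stood at 7.34 and 16.3 CPM in KO livers, against 108 and 56.6 CPM in WT livers, and did not pass (log2 -2.77, SE 0.79, edgeR adjusted p = 0.206). Rnf39 (log2 -3.76), Sel1l3 (log2 -2.95) and Pparg complete the 15 largest falls. Of these 15, 1 kept a call without WT replicate 2, 7 without KO replicate 2, 10 without WT replicate 1 and 11 without KO replicate 1. Fmn1 and Gpc1 overlap other annotated genes.

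Smaller changes, named here after their values were seen, included the small heat shock protein gene Hspb1, at 1.92 and 2.63 CPM in KO livers, against 12.7 and 11.3 CPM in WT livers (log2 -2.37, edgeR adjusted p = 0.00975). In the same direction, P4ha2, a collagen prolyl hydroxylase subunit, stood at 1.69 and 1.77 CPM in KO livers, against 7.97 and 8.21 CPM in WT livers (log2 -2.22). Slc13a2, a citrate transporter gene below the level required for naming, had 2 counts in the KO livers and 122 in the WT livers, a ratio WT over KO of 68.0 (95% counting interval 18.4 to 568). E2f2, a cell cycle transcription factor, stood at 7.80 and 10.9 CPM in KO livers, against 2.47 and 2.42 CPM in WT livers (log2 1.94). A predicted gene without a count in either WT liver had 161 counts in the KO livers.

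Glutathione S-transferases, which couple glutathione to electrophiles, had 5 of 24 members called higher, against 0.286% of all genes tested, and 0 called lower. Both KO livers lay above both WT livers at 13 of 24, against 17.8% of all genes tested. The median log2 fold change of the family was 0.61, but 0.30 without KO replicate 2 and 0.29 without WT replicate 1. Gstm3 stood at 410 and 1387 CPM in KO livers, against 82.0 and 56.3 CPM in WT livers (log2 3.70, SE 0.59, edgeR adjusted p = 0.0243). Gsta2 stood at 91.3 and 311 CPM in KO livers, against 12.9 and 22.3 CPM in WT livers (log2 3.51, SE 0.66, edgeR adjusted p = 0.0495). Gsta4 stood at 123 and 299.7 CPM in KO livers, against 42.6 and 56.7 CPM in WT livers (log2 2.09, SE 0.34, edgeR adjusted p = 0.0264). KO replicate 2 was the higher of the KO livers at each of these. Gstm2 (log2 2.04) and Gstm4 (log2 1.76) were the other calls. Gstm2, Gstm3 and Gstm4 lie side by side on chromosome 3, and Gsta2 and Gsta4 on chromosome 9, and reads of such close copies may be split by the counting. Without KO replicate 1 edgeR called all 5, and without KO replicate 2, WT replicate 1 or WT replicate 2 it called 0 of them.

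NRF2 is the transcription factor that drives many of these enzymes under oxidative stress. Of 25 NRF2 targets 0 were called in edgeR, although 12 had an unadjusted p under 0.05, against 1681 of all 17831 genes tested. The median log2 fold change of the targets was 0.66. That median was -0.04 without KO replicate 2 and 0.86 without KO replicate 1. Srxn1, a reductase of oxidised peroxiredoxins, stood at 147 and 463 CPM in KO livers, against 63.6 and 63.1 CPM in WT livers (log2 2.27, SE 0.45, edgeR adjusted p = 0.0604). Me1, the malic enzyme, stood at 104 and 82.7 CPM in KO livers, against 190 and 272 CPM in WT livers (log2 -1.31, SE 0.25, edgeR adjusted p = 0.0570). These pointed in opposite directions without overlap, and neither passed. The antioxidant response element TGACNNNGC, or GCNNNGTCA on the other strand, was found in 13 of 43 matched promoters of the glutathione and NRF2 lists (30.2%) and in 16.6% of promoters of tested genes. It was found in 0 of the 4 matched promoters of the called transferases.

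Other drug-processing enzymes showed fewer calls. Of 53 cytochrome P450 genes of drug and steroid oxidation 0 were called, with a median log2 fold change of -0.09. In edgeR 8 of them had an unadjusted p under 0.05, against 1681 of all 17831 genes tested. Of 37 conjugation enzymes 2 (5.41%) were called lower, Nat8 and Ugt3a1, against 0.23% of all genes tested, and 0 higher. Ugt3a1, a glycosyltransferase, stood at 17.2 and 8.33 CPM in KO livers, against 73.6 and 71.6 CPM in WT livers (log2 -2.53, SE 0.43, edgeR adjusted p = 0.0307). Nr1i3, which encodes the drug-sensing receptor CAR, stood at 72.0 and 50.6 CPM in KO livers, against 60.1 and 263 CPM in WT livers. WT replicate 2 stood apart from the other 3 livers at Nr1i3, and the difference did not pass (log2 -1.41, SE 0.64, edgeR adjusted p = 0.534).

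Genes of lipid metabolism carried calls at single genes. Of 36 genes of fatty acid synthesis and desaturation, Scd2 was called higher (2.78%) and Pparg lower (2.78%), against 0.286% and 0.23% of all genes tested. The median log2 fold change of the list was -0.06. Pparg, the nuclear receptor of fat storage, stood at 0.791 and 1.66 CPM in KO livers, against 7.97 and 15.1 CPM in WT livers (log2 -3.13, SE 0.46, edgeR adjusted p = 0.0177). The main hepatic desaturase Scd1 stood at 6593 and 4532 CPM in KO livers, against 6969 and 6120 CPM in WT livers (log2 -0.23, SE 0.41, edgeR adjusted p = 0.981). Of 40 genes of fatty acid oxidation and ketogenesis, both KO livers lay below both WT livers at 19 (47.5%), against 15.2% of all genes tested. Their median log2 fold change was -0.45 and the only call, Hao2, was higher (2.5%), against 0.286% of all genes tested. That median was -0.27 without KO replicate 2 and -0.25 without WT replicate 2. Hadhb, a subunit of the mitochondrial trifunctional protein, stood at 85.0 and 79.1 CPM in KO livers, against 98.9 and 139 CPM in WT livers, with a log2 fold change of -0.54 (SE 0.17, edgeR adjusted p = 0.278). Of 24 cholesterol genes and 30 bile acid genes edgeR called 0, with 0 and 3 at an unadjusted p under 0.05, against 1681 of all 17831. The median log2 fold changes of these lists were -0.17 and -0.12, and -0.50 and -0.49 without KO replicate 1.

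Liver lobules are zoned, with hepatocytes near the central vein making glutamine under Wnt signals and those near the portal vein making urea and glucose. Of 28 pericentral genes 3 (10.7%) were called lower, against 0.23% of all genes tested, and 0 higher. Their median log2 fold change was -0.44. Slc1a2, a glutamate transporter of pericentral hepatocytes (chromosome 2, 102658659 to 102790784), stood at 36.7 and 32.3 CPM in KO livers, against 151 and 242 CPM in WT livers (log2 -2.51, SE 0.34, edgeR adjusted p = 0.0117). Tnfrsf19, a receptor gene induced by Wnt, stood at 2.82 and 3.32 CPM in KO livers, against 9.86 and 15.8 CPM in WT livers (log2 -2.06, SE 0.35, edgeR adjusted p = 0.0330). Aldh3a2, given above, was the third call. Among uncalled members, Glul, glutamine synthetase, stood at 1096 and 454 CPM in KO livers, against 861 and 1058 CPM in WT livers. Cyp2e1, which oxidises ethanol, stood at 4149 and 1454 CPM in KO livers, against 4575 and 5141 CPM in WT livers, and did not pass (log2 -0.79, SE 0.54, edgeR adjusted p = 0.791). Without WT replicate 2 the list's median was 0.07 and 0 of the 3 were called. Without KO replicate 2, Aldh3a2 alone kept its call, and without WT replicate 1 the median was -0.80.

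Of 24 periportal genes 1 was called higher (4.17%), against 0.286% of all genes tested, and 0 lower. The median log2 fold change of the list was 0.07. Apoa4, an apolipoprotein of triglyceride-rich particles, stood at 554 and 722 CPM in KO livers, against 176 and 178 CPM in WT livers (log2 1.85, SE 0.24, edgeR adjusted p = 0.00975). Of 30 genes of the urea cycle and ammonia handling only Slc1a2 was called, lower (3.33%), against 0.23% of all genes tested. Of 25 Wnt and YAP targets only Tnfrsf19 was called, lower (4%), against 0.23% of all genes tested. The median of -0.29 over these targets was 0.33 without WT replicate 2. Hepatocyte identity factors had 0 of 29 called (median log2 -0.12), plasma proteins and acute phase genes 0 of 54 (0.07) and the unfolded protein response 0 of 30 (-0.07). In edgeR 1, 5 and 4 members of these lists had an unadjusted p under 0.05, against 1681 of all 17831 genes tested. Hnf4a, the master factor of hepatocytes, stood at 938 and 830 CPM in KO livers, against 1152 and 925 CPM in WT livers.

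Sex-biased and growth hormone dependent genes differed between the KO livers. The median over the list of 38 genes, relative to the WT mean, was 0.45 in KO replicate 1 and -0.84 in KO replicate 2. Mup21, a male-biased urinary protein gene among near-identical copies, stood at 1334 and 564 CPM in KO livers, against 69.7 and 247 CPM in WT livers (log2 2.58, SE 0.97, edgeR adjusted p = 0.394). The Y-linked gene Ddx3y was present in all 4 livers, at 69.8 and 60.5 CPM in KO livers, against 95.6 and 78.6 CPM in WT livers. The only call in the list was Hao2, higher (2.63%), against 0.286% of all genes tested.

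Genes of mitosis were detected at low levels and lay higher in the KO livers without passing the test, apart from Ncapg. That call was 1.79% of the list, against 0.286% of all genes tested called higher. Of 56 members, both KO livers lay above both WT livers at 46 (82.1%), against 17.8% of all genes tested, and the median log2 fold change was 1.39. Their summed level was 111 and 166 CPM in KO livers, against 69.1 and 59.2 CPM in WT livers. Mki67, the Ki-67 proliferation antigen, stood at 5.31 and 7.25 CPM in KO livers, against 1.23 and 1.12 CPM in WT livers (log2 2.44, SE 0.68, edgeR adjusted p = 0.191). Top2a, the topoisomerase of dividing cells, stood at 4.52 and 6.9999 CPM in KO livers, against 1.61 and 0.584 CPM in WT livers (log2 2.53, SE 0.63, edgeR adjusted p = 0.140). Both KO livers were above both WT livers at both genes. The list's median was 0.83 without KO replicate 2, 1.83 without KO replicate 1, and 1.66 and 1.45 without WT replicates 1 and 2. In edgeR 27 of the 56 had an unadjusted p under 0.05, against 1681 of all 17831 genes tested.

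Of 47 DNA replication genes 0 were called in edgeR and 19 had an unadjusted p under 0.05, against 1681 of all 17831 genes tested. The median log2 fold change of the list was 0.79. That median was 0.10 without KO replicate 2 and 1.09 without KO replicate 1. Mcm6, a subunit of the replicative helicase, stood at 7.23 and 27.4 CPM in KO livers, against 2.28 and 3.10 CPM in WT livers (log2 2.69, SE 0.61, edgeR adjusted p = 0.107). Uhrf1, which maintains DNA methylation in S phase, stood at 1.58 and 14.4 CPM in KO livers, against 0.854 and 0.584 CPM in WT livers (log2 3.58, SE 0.86, edgeR adjusted p = 0.134). The groups did not overlap, and KO replicate 2 was the higher KO liver at both. Of 27 p53 targets 0 were called in edgeR and 12 had an unadjusted p under 0.05, against 1681 of all 17831 genes tested. The median of the p53 targets was 0.63. It was 0.32 without KO replicate 2. Cdkn1a, the cell cycle inhibitor p21, stood at 43.6 and 72.1 CPM in KO livers, against 11.8 and 3.19 CPM in WT livers (log2 3.005, SE 0.73, edgeR adjusted p = 0.140).

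**Figure D3:**
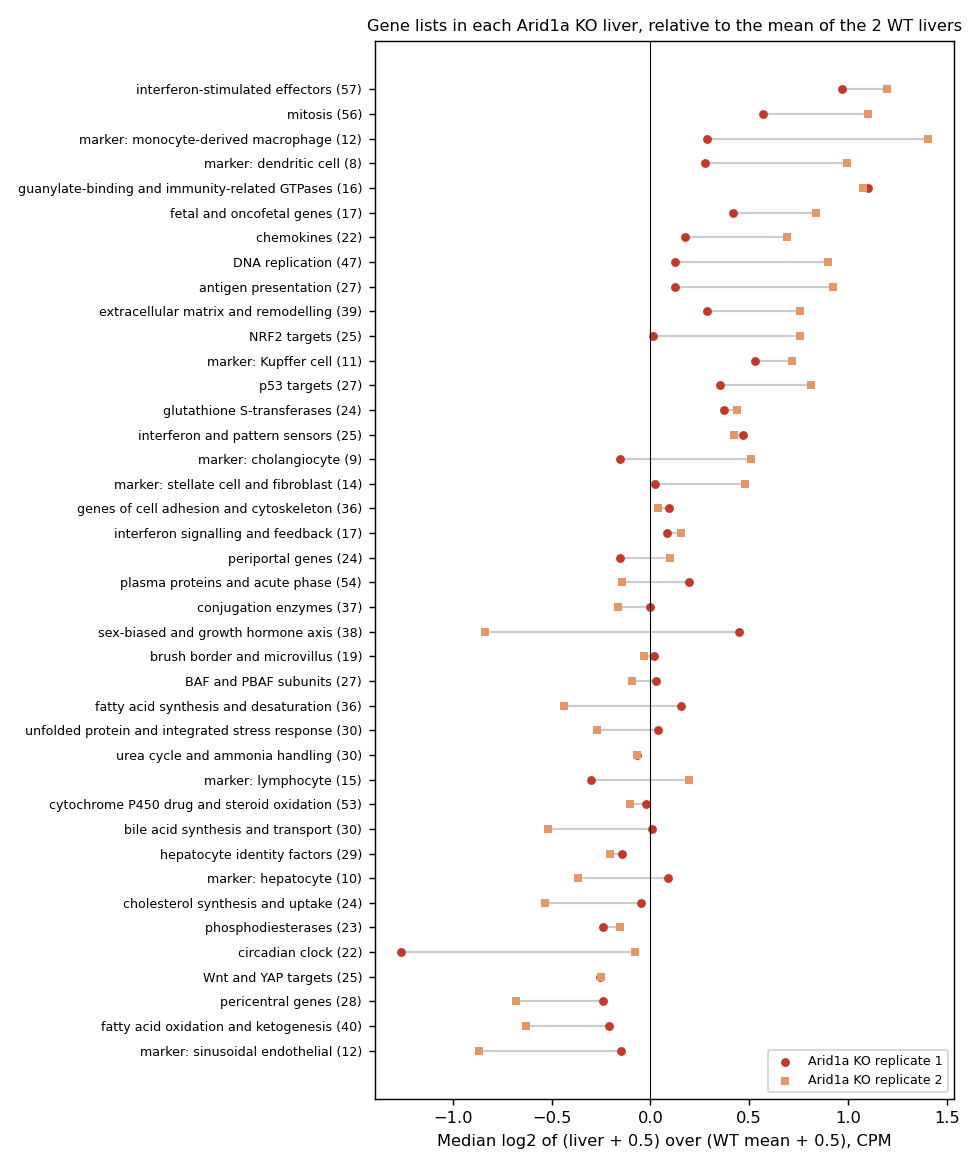
Median log2 level of each gene list in Arid1a KO replicate 1 (red circles) and replicate 2 (orange squares), relative to the mean of the 2 WT livers with 0.5 CPM added, for lists with 8 or more measured members (number in brackets). Interferon effectors stand near 1 in both KO livers (0.97 and 1.198), while DNA replication (0.12 and 0.90) and NRF2 targets (0.01 and 0.76) stand apart from 0 in replicate 2.

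Extracellular matrix and remodelling genes had 1 of 39 called higher (2.56%), Col5a2, against 0.286% of all genes tested. Both KO livers lay above both WT livers at 22 of 39 (56.4%), against 17.8% of all genes tested. Col5a2, a chain of type V collagen, stood at 17.4 and 48.6 CPM in KO livers, against 4.36 and 4.17 CPM in WT livers (log2 2.96, SE 0.52, edgeR adjusted p = 0.0397). Col1a1, the main fibrillar collagen chain, stood at 11.4 and 43.7 CPM in KO livers, against 6.07 and 3.95 CPM in WT livers (log2 2.50, SE 0.63, edgeR adjusted p = 0.140). The list's median log2 fold change of 0.67 was 0.27 without KO replicate 2. Of 17 fetal and oncofetal genes Scd2 and Tff3 were called higher (11.8%), against 0.286% of all genes tested. The median log2 fold change of these 17 was 0.96, but 0.41 without KO replicate 2 and 1.73 without WT replicate 2. Alpha-fetoprotein, Afp, stood at 2.03 and 6.03 CPM in KO livers, against 2.18 and 1.08 CPM in WT livers, so its groups overlapped.

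Marker genes of cell types had 0 calls in each of the 12 lists, and in bulk tissue a change in the number of cells and a change in RNA per cell cannot be told apart. Hepatocyte markers were abundant, with 10 of 10 measured and a summed level of 36179 and 25452 CPM in KO livers, against 36398 and 29299.9 CPM in WT livers. Albumin, Alb, stood at 1875 and 4120 CPM in KO livers, against 3101 and 4552 CPM in WT livers. Markers of other liver cells were detected as well. Kupffer cell markers summed to 582 and 749.8 CPM in KO livers, against 588 and 198 CPM in WT livers, and WT replicate 2 alone was low. Their median log2 fold change of 0.64 was 0.13 without WT replicate 2 and 1.61 without WT replicate 1.

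Markers of monocyte-derived macrophages summed to 222 and 437 CPM in KO livers, against 162 and 91.7 CPM in WT livers, without overlap. Their median log2 fold change over 12 members was 1.36. In edgeR 7 of the 12 had an unadjusted p under 0.05, against 1681 of all 17831 genes tested. Spp1, osteopontin, which is also a cholangiocyte and fetal marker, was part of these sums. It held 84.6 and 261 CPM of them in KO livers, against 40.3 and 32.9 CPM in WT livers (log2 2.24, SE 0.55, edgeR adjusted p = 0.140). In the same list Gpnmb, which lipid-laden macrophages express, stood at 1.02 and 12.2 CPM in KO livers, against 0.0948 and 0.0449 CPM in WT livers (log2 6.72, SE 1.66, edgeR adjusted p = 0.140). KO replicate 2 was the highest of the 4 livers at both, and the list's median was 0.43 without it. Dendritic cell markers summed to 21.7 and 24.5 CPM in KO livers, against 17.0 and 17.2 CPM in WT livers, with a median log2 fold change of 1.30, which was 0.43 without KO replicate 2. The part of these cells in the mitosis and matrix values was not tested.

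Sinusoidal endothelial markers stood below both WT livers in both KO livers at 5 of 12 genes, against 15.2% of all genes tested, and they summed to 495 and 338 CPM in KO livers, against 657 and 484 CPM in WT livers. These sums overlapped. The median over the 12 was -0.51, and it was -0.84 and -0.20 without KO replicates 1 and 2 in turn, and -0.17 without WT replicate 1. Stellate cell and fibroblast markers summed to 486 and 832 CPM in KO livers, against 525 and 544 CPM in WT livers (median log2 0.37), and cholangiocyte markers to 146 and 311 CPM in KO livers, against 98.7 and 88.8 CPM in WT livers (median log2 0.47). Without KO replicate 2 these medians were -0.04 and -0.28. Spp1 held 84.6 and 261 CPM of the cholangiocyte sums in KO livers, against 40.3 and 32.9 CPM in WT livers. Of the 9 measured cholangiocyte markers 6 had a positive log2 fold change and 3 a negative one. Lymphocyte, neutrophil and erythroid markers had medians of -0.08, -0.39 and -0.16, whose signs turned with single livers. Without KO replicates 1 and 2 in turn the lymphocyte median was 0.45 and -0.79. Without WT replicates 1 and 2 in turn the neutrophil median was 1.06 and -1.48, and the erythroid median 1.18 and -0.52. Digestive tract and pancreas markers were scarce, with Muc5b, Cdx2 and Amy2a5 at 0 in all 4 livers.

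Genes of the circadian clock separated the replicates within each genotype rather than the genotypes. The core loop pairs the activator Arntl with repressors of the Per and Cry families and drives output factors such as Dbp. Arntl stood at 59.7 and 1.55 CPM in KO livers, against 18.8 and 1.30 CPM in WT livers. Dbp stood at 6.10 and 324 CPM in KO livers, against 61.0 and 393 CPM in WT livers. Usp2, a clock-driven protease named here after its values were seen, stood at 2.15 and 103 CPM in KO livers, against 10.4 and 123 CPM in WT livers. Replicate 1 was the high liver for Arntl and the low one for Dbp and Usp2 in both genotypes. All 22 clock genes measured had replicate 2 on the same side of replicate 1 in KO and in WT, and replicates lay more than 4-fold apart at 11 genes in KO livers and at 8 in WT livers. In the KO against WT comparison 0 of the 22 were called in edgeR. Of them 1 had an unadjusted p under 0.05 in edgeR, against 1681 of all 17831 genes tested. The labels give no hour of collection.

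**Figure D4:**
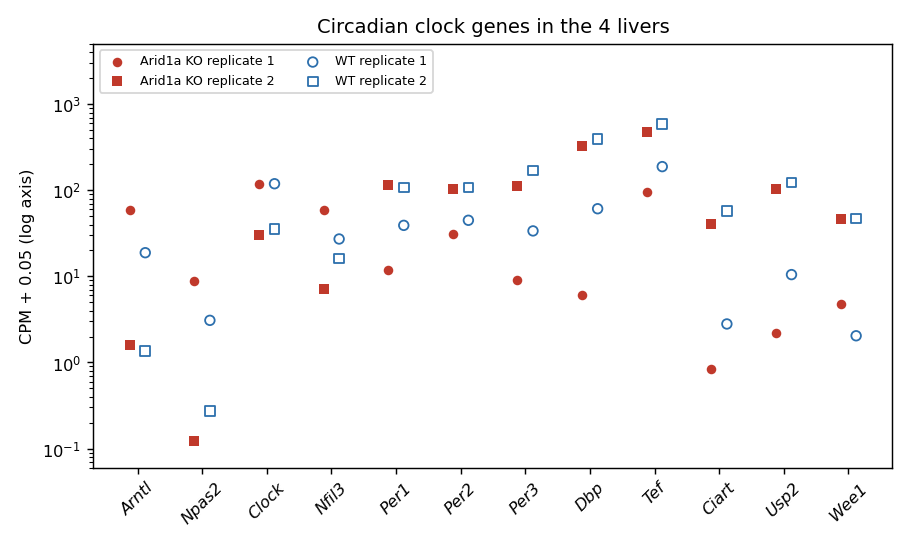
Levels of several clock and clock-output genes, picked after their values were seen, in the 4 livers (CPM plus 0.05, log axis), with Arid1a KO filled red and WT open blue, circles for replicate 1 and squares for replicate 2. Symbols of the same shape lie together at most genes, as for Dbp at 324 CPM in KO and 393 CPM in WT replicate 2.

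Called genes were matched to GENCODE M21 (GRCm38), which placed 87 of the 92. Among the called genes 19 of 51 higher and 23 of 41 lower overlap another annotated gene, and reads of such pairs cannot be told apart without the strand setting. Another called gene lay within 500 kb of 19. Tff3 (chromosome 17, 31125306 to 31129646), called higher, and Pde9a (31386210 to 31476310), called lower, are such neighbours, and they changed in opposite directions. Rdh16, a retinol dehydrogenase, and Sdr9c7 lie beside each other on chromosome 10 (127801152 to 127846565 and 127898518 to 127911761), and both were called lower. Rdh16 stood at 32.7 and 33.5 CPM in KO livers, against 76.1 and 128 CPM in WT livers. Htr1d and E2f2, both called higher, lie on chromosome 4 at 136423524 to 136444398 and at 136172394 to 136196057. They and Serinc2 (130253495 to 130279205) were the 3 called genes among 287 tested within 10 Mb of Arid1a, a window that holds 1.61% of tested genes. Of the 9 called genes on chromosome 4, Serinc2, Acot11, Unc13b and Fbxo44 were lower.

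The 9-day livers and the agonist-treated livers share no library with this comparison, but all livers entered the same edgeR fit. Each gene's spread was estimated over all groups together, so the shared calls below do not come from independent tests. At 9 days edgeR called 101 genes (0.566%) between Arid1a KO and WT, and under the agonist 883 (4.95%). Of the 51 genes called higher at 30 days with vehicle, 26 were called higher at 9 days, which is 51.0% of the 30-day list and 54.2% of the 9-day list. Of the 41 called lower, 24 were called lower at 9 days, 58.5% and 45.3% of the 2 lists. Under the agonist 41 of the 51 were called higher, where 3.05% of all genes were, and 21 of the 41 lower, where 1.91% were. A test of the difference itself, the interaction of genotype with time, called 0 genes in edgeR and 1 in DESeq2. In edgeR 323 of the 17831 genes tested had an unadjusted p under 0.05 for it. Aldh3a2 had the smallest p among the 92, with a log2 fold change of -3.05 at 30 days and -1.14 at 9 days (difference -1.91, SE 0.49), and did not pass adjustment.

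The interaction of genotype with treatment called 1 gene (0.00561%), Slc1a2, in edgeR and 132 genes in DESeq2. In edgeR 995 of the 17831 genes tested had an unadjusted p under 0.05 for it. Slc1a2 had a log2 fold change of -2.51 with vehicle and -7.97 under the agonist, and stood at 0.696 and 0.524 CPM in agonist-treated KO livers, against 145 and 153 CPM in agonist-treated WT livers. The difference of the effects was 5.45 (SE 0.54, edgeR adjusted p = 0.0129). Some genes called lower with vehicle lay at or above WT under the agonist. Pparg stood at 34.3 and 34.9 CPM in agonist-treated KO livers, against 16.02 and 22.4 CPM in agonist-treated WT livers, and its effects differed by -3.97 (SE 0.61, edgeR adjusted p = 0.0900). Ddah1 stood at 115 and 149 CPM in agonist-treated KO livers, against 74.3 and 119 CPM in agonist-treated WT livers, and its effects differed by -4.87 (SE 0.92, edgeR adjusted p = 0.203). Neither difference passed. Cyp2d12 and Grm8, called higher with vehicle, had log2 fold changes of -1.75 and -1.48 under the agonist, and their interactions had edgeR adjusted p = 0.0900 and 0.0747. The titles of the WT agonist livers say 9 days and their other labels 30 days, so time and treatment cannot be fully told apart in this comparison.

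**Figure D5:**
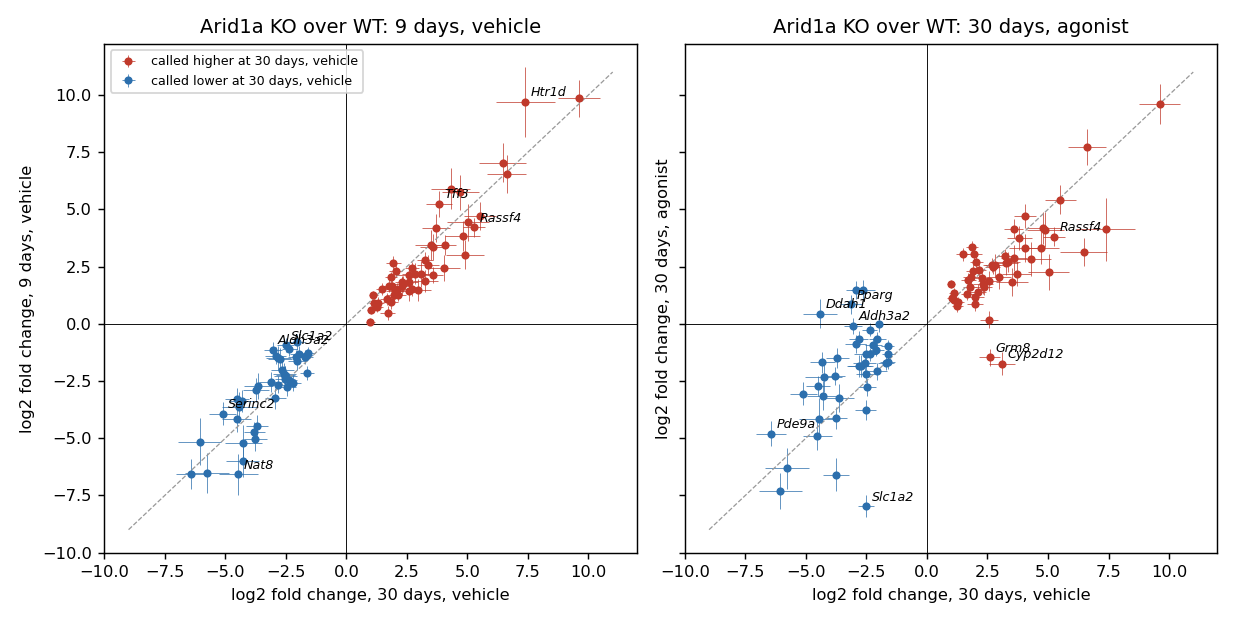
Log2 fold changes, Arid1a KO over WT, of the 92 genes called at 30 days with vehicle (x axis) against the same at 9 days with vehicle (left) and at 30 days under the agonist (right), with standard errors as bars and equality as a dashed line. At 9 days all 92 keep their sign, and under the agonist 49 of 51 higher and 36 of 41 lower genes do, with Slc1a2 at -7.97.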

How the data were processed

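Whole-liver RNA was sequenced from TruSeq libraries, per the labels' protocols. The submitters' processing notes name fastp, STAR 2.7.3 and featureCounts, and the builds GRCm38.p6 and mm10. Neither names an annotation release or a strand setting. The deposited table holds raw counts per gene. The authors also deposited a table of normalized counts, a signal with a scaling of its own for each library, which served for the limma alternative with a pseudocount of 1.

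A quasi-likelihood model in edgeR 4.0.16, under R 4.3.3, took the counts of 14 liver libraries in 7 groups, with TMM scaling and filterByExpr, which here asked for about 0.400 CPM in at least 2 libraries. P-values were adjusted by Benjamini-Hochberg over all 17831 genes tested, and an adjusted p under 0.05 was called. Standard errors were derived from each log2 fold change and its F statistic. The fit was also run on simulated data, and the outcome is not given here. DESeq2 1.42.0, limma 3.58.1, RLE scaling, no filter, a replicate block, only 4 libraries, all 16 libraries and 4 fits without 1 liver were the 11 alternatives. With 2 livers a group, each gene's spread was estimated over the 14 livers of the 7 groups together. The p-values rest on that spread and speak only for these samples. Counting intervals and the floor of 3 counts cover counting error only, since the reads carry no molecular identifiers.

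By rule, named genes were the 15 largest changes in each direction among called genes with at least 2 CPM on average, and up to 4 members of each list with the smallest p. Arid1a, Arid1b, Nr1i3, Mki67, Alb and Dbp were named in every case. Further genes, among them Glul, Cyp2e1, Arntl, Ifit1, Jak1, Scd1, Afp and Rdh16, were named outside this rule, with the results known. The list members and the 44 gene lists were chosen with earlier results of these data known. Levels of list members in a single liver were compared after adding 0.5 CPM. Promoter sequences are from RefSeq (GRCm38.p6) and gene positions from GENCODE M21. Total counts of the 4 livers ran from 10.3 M to 28.2 M. Some genes counted here are not reported by name.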

Additional observations from a re-analysis of the deposited data

Results flagged for a closer look

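The effect of Arid1a loss on Slc1a2, a glutamate transporter gene, differed between vehicle and agonist by a test of the difference itself. The log2 fold change, KO over WT, was -7.97 under the agonist and -2.51 with vehicle, a difference of 5.45 (SE 0.54, edgeR adjusted p = 0.0129). Both agonist-treated KO livers lay below both vehicle-treated KO livers. The labels of the agonist-treated WT livers give both 9 and 30 days.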

How the results depend on the processing

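All 92 called genes had the same sign under each of the 11 alternatives. In the fits without 1 liver this was fixed in advance, apart from scaling, since the groups do not overlap at these genes. The other alternatives reuse the same counts, so the shared sign is no independent check. The number of calls was 89 with RLE scaling and 125 with limma, but 942 without the low-count filter, 421 with DESeq2, 52 with all 16 libraries and 0 with only the 4 libraries, where fewer samples entered. Leaving out 1 liver gave 1 to 177 calls. The genotype by time interaction called 151 genes without the filter and 1 with DESeq2, and leaving out 1 liver gave 0 to 1. The genotype by treatment interaction called 493 genes without the filter, 132 with DESeq2 and 6 with limma, and leaving out 1 liver gave 1 to 23. The fit of only the 4 libraries gives no interaction. The causes of these differences were not tested.

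Replicate numbers are shared between groups, and the correlation of same-numbered deviations ran from -0.0779 to 0.366. Among the 30-day groups it ran from 0.170 to 0.366 and was 0.239 for the KO and WT livers with vehicle. Total counts were 10.3 M and 28.2 M in KO replicates 1 and 2, against 11.4 M and 24.3 M in WT. All 22 clock genes had replicate 2 on the same side of replicate 1 in both genotypes. The labels do not say whether same-numbered livers form a set, so pairing was not established. With the replicate block 93 genes were called, 76 of them among the 92, and the interactions called 0 genes for time and 9 for treatment. Of the results for named genes under the alternatives, 1647 kept their side of the threshold, 182 fell short of it, 144 newly passed it, 27 moved and 0 reversed. Of list medians 432 kept their value within the spread and 52 moved. At 10.3 M to 28.2 M counts a library, 3 counts stand for 0.108 to 0.339 CPM, and differences below that are not detectable.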
